A study of Mus musculus with 672 samples.

Results

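The cells described here were the 86 female mouse embryonic fibroblasts (MEFs) of the day 0 plate, out of 567 cells in the whole single-cell table. They were chosen by their label alone, as all day 0 cells in that table, and no measured value entered this choice. The authors had earlier kept cells by limits on genes and mitochondrial reads, and 86 of 96 labelled day 0 cells were in the table. The MEFs came from a hybrid cross of Mus females carrying an X-linked GFP reporter with Cast males, and were cultured to passage 1. They had been transduced overnight with the lentiviruses tetO-FUW-OSKM and FUW-M2rtTA, cultured in MEF medium, and sorted as GFP-negative cells (Xi-GFP, with the Mus X chromosome inactive). Doxycycline, which switches on the OSKM factors, was added only after this time point, so these cells were the uninduced start of the reprogramming series. The 96 sorted cells went into the wells of 1 plate, and nothing ties single wells to different cultures or embryos. All 86 cells therefore counted as 1 sample, and every value below describes the spread between cells of that plate, with no test.

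Fibroblasts build the extracellular matrix of connective tissue. They secrete fibrillar collagens and glycoproteins that are assembled outside the cell, and they pull on that matrix with actin and myosin fibres. When fibroblasts are grown on stiff plastic in serum, many take on myofibroblast features, with smooth muscle actin (Acta2) built into stress fibres. MEFs are prepared from most of the embryo body, so a culture mixes mesenchymal cells of many sites and cells in every phase of the cycle. In a single dish this heterogeneity appears as genes whose RNA differs from cell to cell, and as sets of genes that go up and down together.

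Depth was 60818 reads in the shallowest cell, 603921 in the median cell and 1070928 in the deepest, and genes with reads per cell were 4154, 6824 and 8407 (lowest, median, highest). Reads of mitochondrially encoded genes took 1.9, 2.93 and 5.2% of a cell (same order). All values below are reads per 100000 reads of a cell, so 1 read was worth 1.64 in the shallowest cell and 0.0934 in the deepest. Deeper cells had more genes with reads (rho = 0.79 over 86 cells), but only 2 of the 2015 genes used for correlations reached an absolute rho of 0.5 with reads per cell. All 96 index pairs of the day 0 plate were also used for a plate of the other sequencing pool, and none was shared within its own pool. Cell 7 stood apart. It had the fewest genes with reads (4154, against 4414 in the next cell) and 85291 reads, and its summed level of cytosolic ribosomal protein genes was 4623, against 2400.0 in the next highest cell. It was the highest cell for 255 of the 2015 genes, against 116 genes for the next such cell, and the main counts are given with and without it. It was the lowest for the summed replication, collagen processing and TGF-beta responsive lists described below.

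The 5 marker genes fitted the label. Col1a1, which encodes a chain of type I collagen, had reads in all 86 cells at 167, 580.5 and 1894 (lowest, median, highest). Bgn, the matrix proteoglycan biglycan, stood at 54.6, 373 and 871, and Vim, the intermediate filament protein vimentin, at 153, 375 and 779. These 3 genes had reads in every cell and the lowest coefficients of variation of the 5 markers (0.51, 0.395 and 0.342). Thbs1, the matricellular glycoprotein thrombospondin, stood at 3.52, 316 and 1408, with the lowest value in cell 7. Acta2 ranged more widely, at 0, 567 and 4617, and its only cell without reads was cell 74. The interquartile range was 256 to 1094 for Acta2, a 4.28-fold width, against a 1.98-fold width for Col1a1. In mm10, Col1a1 lies at chr11:94936224-94953042, Acta2 at chr19:34241090-34255590, Thbs1 at chr2:118111876-118127133, Bgn at chrX:73483602-73495933 and Vim at chr2:13573927-13582826.

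Markers of other cell types were scarce. Summed epithelial, pluripotent, endothelial, blood and macrophage, skeletal muscle and keratinocyte markers had a median of 0 per cell, and no cell held reads of 3 or more members of any of these lists that the median cell lacked. Of the measured markers, 5 of 10 epithelial, 5 of 10 blood and macrophage, 3 of 4 skeletal muscle and 6 of 8 keratinocyte genes had reads somewhere. Among those without reads in any cell were Epcam and Cdh1 (epithelium), Ptprc (blood), Myod1 (muscle) and Krt5 (keratinocyte). The highest sums were 71.5 for skeletal muscle markers, from Des, and 65.9 for epithelial markers, from Krt19. Keratinocyte markers reached 40.4, blood and macrophage markers 22.1, endothelial markers 6.04 and pluripotent markers 2.36. Fat markers stood at a median of 2.44 and neural markers at 6.47, and the only neural marker past the variability filter was Nes, an intermediate filament gene. Cartilage markers were the exception, with summed levels of 0, 17.3 and 777 (lowest, median, highest) and 10 cells holding reads of at least 3 of the 6 members that the median cell lacked, although Matn1 had none in any cell. Of the pericyte and smooth muscle markers that the median cell lacked, 3 cells held reads of 3 or more, and counting every marker of that list 10 cells did. Of the reprogramming factors, Pou5f1 and Sox2 each had reads in 1 cell, at 0.221 and 0.664. Klf4 had reads in 44 cells at a mean of 2.18, and Myc in 79 cells at 34.2, where reads of the gene and of the lentiviral copy could not be told apart.

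Ribosomal RNA, cytoskeletal genes and secreted matrix genes made up most of the most abundant genes. CT010467.1, annotated as ribosomal RNA (chr17:39846353-39848827, mm10), took 5.07% of all reads, at 1887, 5013 and 8644 per 100000 (lowest, median, highest). The 25 nuclear genes of highest mean together held 14.9% of reads and the first 1000 held 56.2%. The cytoskeletal and contractile genes among them were Actb (mean 1422 ± 471, SD over 86 cells), Acta2 (781 ± 779), Tpm1, a tropomyosin (469 ± 233), Tmsb4x, which binds actin monomers (415 ± 329.8), Pfn1 (profilin, 259 ± 100.0), Vim (391 ± 134) and the tubulin Tubb5 (249.7 ± 132). The secreted and matrix genes were Col1a1 (633 ± 323), Spp1, the phosphoprotein osteopontin (504 ± 1165), Sparc (442 ± 187), Thbs1 (411 ± 329), Bgn (395 ± 156), Col1a2 (327 ± 177), Fn1 (fibronectin, 319.9 ± 174), Cyr61 (258 ± 179) and Ctgf (218 ± 179.6).

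The rest of the 25 were Lgals1, a galectin (531 ± 212, or 511 ± 100.1 without cell 7), the membrane-binding Anxa2, the endoplasmic reticulum (ER) genes Hspa5 and P4hb, the cytosolic chaperone Hsp90ab1, the translation genes Rpl4 and Eef1a1, and the nuclear RNA Malat1 (248 ± 188). The standard deviation exceeded the mean for Spp1 alone, and nearly equalled it for Acta2. The mitochondrial transcripts were led by mt-Rnr2 (883 ± 266) and mt-Cytb (792 ± 225). Because Smart-seq2 reads cover whole transcripts, levels of different genes compare only per length. Per kilobase of exon, CT010467.1 still led (2057 reads per 100000 per kb), followed by Lgals1 (589), Actb (531), Acta2 (356), Spp1 (306) and Tmsb4x (303), while Col1a1 stood at 96.5 and Fn1, with its long transcript, at 27.4. Taking the median over cells in place of the mean kept 24 of the 25 genes.

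**Figure D1:**
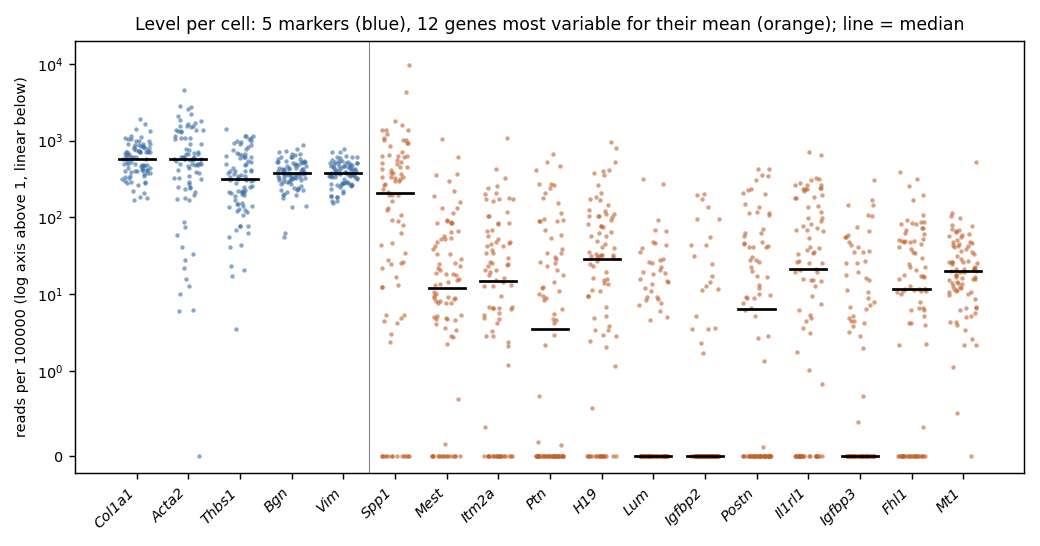
Level of each gene in each of the 86 cells (points, reads per 100000, log axis above 1 and linear below) for the 5 markers in blue and the 12 genes most variable for their mean in orange, with the median as a black line. Vim lies between 153 and 779 in every cell, whereas Spp1 has no reads in 13 cells and 9632 in the highest.

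To find genes that differed between cells beyond what their level would give, the squared coefficient of variation was set against the running median of genes of like mean. Of 3849 genes with a mean of at least 5 and reads in at least 10 cells, 411 (10.7%) lay 0.3 log10 units or more above that line, which is a 2.00-fold excess in squared variation, and are called variable below. The excess is given in log10 units, and the line itself is at 0. Thinning each cell to 100000 reads left 383 genes called, of which 358 were among the 411. The wells of the plate carry 8 row indexes. Within the 41 cells of the first 4 row indexes 329 of the 411 were called, and within the 45 cells of the last 4, 316. Without cell 7, 420 genes were called, 381 of them among the 411.

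**Figure D2:**
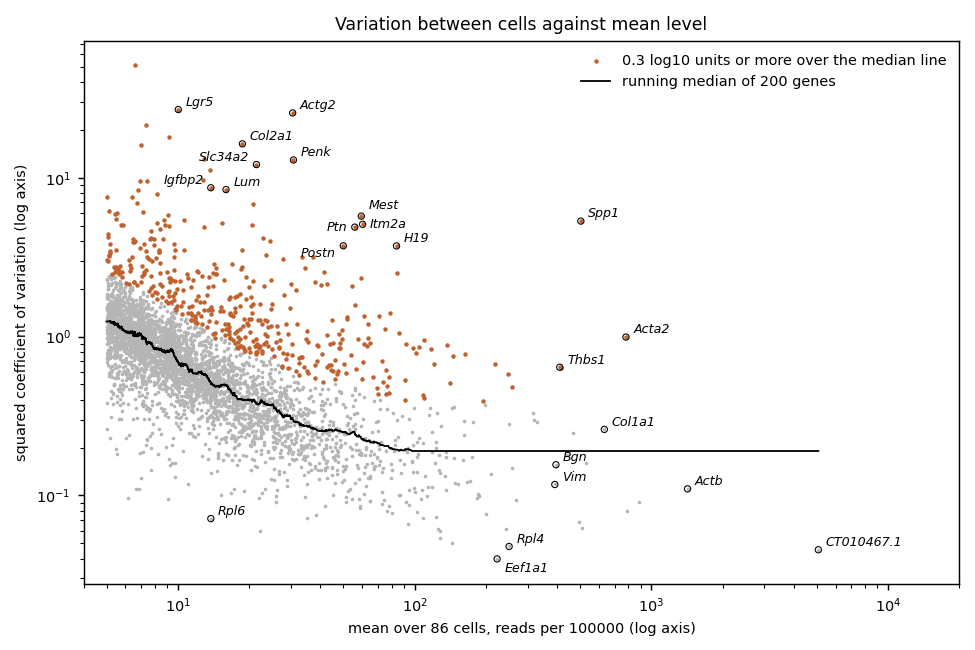
Squared coefficient of variation over 86 cells against mean level for 3849 genes (both axes log), with the running median of 200 genes as a black line and the 411 variable genes in orange. Spp1 stands far above the line at a mean of 504, and Eef1a1 and Rpl4 lie below it at means of 223 and 251.

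Spp1 had the highest excess among genes averaging 10 or more with less than 25% of their signal in 1 cell (1.45). Its levels were 0, 204 and 9632 (lowest, median, highest), with an interquartile range of 12.6 to 549. The highest cell, cell 90, was 47.2 times the median, and cell 58 followed at 4334. Cell 90 was also the lowest of the plate in the summed contractile list described below. Mest, an imprinted gene of the embryonic mesoderm, had an excess of 1.40 and levels of 0, 11.9 and 1037. H19, an imprinted noncoding RNA, had 1.28 and 0, 28.6 and 959. Both were present in most cells, 70 and 68 of 86, and their rho with each other was 0.01, or -0.16 and 0.12 in the first and last 4 row indexes.

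Several of the other leading genes encode secreted or surface proteins of mesenchyme. Itm2a, a membrane protein of developing cartilage and muscle, stood at 0, 14.7 and 1076 (excess 1.35). Ptn, the heparin-binding growth factor pleiotrophin, had no reads in 38 cells and reached 677 in the highest (1.30). Postn, the matrix protein periostin, had none in 37 cells and reached 422 (1.17). Lum, a collagen-binding proteoglycan, had reads in 34 cells (1.24) and Igfbp2, which binds insulin-like growth factors, in only 22 (1.23). The remaining matrix and growth factor genes were Igfbp3 (1.11), the calcification inhibitor Mgp (0.99), Ogn, a small proteoglycan (0.93), Olfml2b (0.95), the protease inhibitor Serpine2 (1.00), Inhba, a subunit of activin (0.92), and Angptl2 (1.00). For Lum, Igfbp2 and Igfbp3 the median cell had no reads, so their variation was in part a matter of which cells had any.

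A second set was made up of immune and stress genes. Il1rl1, the receptor of interleukin 33, stood at 0, 20.9 and 717 (excess 1.11), and the chemokines Cxcl5 and Ccl2 had reads in 49 and 63 cells (0.94 and 0.92). Anxa8, an annexin, reached 312 with none in 38 cells (0.99). The metallothionein Mt1 had reads in 85 cells and reached 529 (1.06), and Adm, the vasoactive peptide adrenomedullin, reached 326 (1.03). Muscle-type genes were represented by Cnn1, calponin, with reads in 43 cells (1.04), Fhl1 (1.08) and Rgs4, which dampens G protein signalling (1.02). Cdc20, an activator of the mitotic ubiquitin ligase, had reads in 49 cells and reached 172 (0.93).

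Of the genes that owed at least 25% of their signal to 1 cell, the 5 of highest excess are described here. The 5 is a fixed limit and not a count of such genes. Each had a higher excess than Spp1. Gpc3, Mmp3, Sfrp2 and Ankrd1, named with their lists below, are not in the ranking above either. Their excess was high enough for it, so they missed its limit on the mean or on the share held by 1 cell. Actg2, the enteric smooth muscle actin, held 52.2% of its signal in cell 44 (1371, next cell 362), which was also the highest cell for Acta2 (4617). The coding sequences of Actg2 and Acta2 are near identical, so reads of both are uncertain. Penk, which encodes enkephalin peptides, held 32.7% in cell 43 (867) and Lgr5, a receptor of R-spondins, 52.4% in cell 56 (453). Col2a1, the collagen of cartilage, held 41.2% in cell 15 (665, next 181). That cell also had the cartilage genes Col9a1 (14.5) and Acan (18.8), which had no reads in the median cell, but none of Matn1 or Comp. Among the other cells Col9a1 reached 13.6 and Acan 47.1. Sox9 stood at 1.71 in cell 15 and reached 37.7 in another cell. Slc34a2, a phosphate transporter, differed in kind, with reads in all 86 cells, 8 to 585 of them, and 37.1% of its signal in cell 7. Its level was lower in deeper cells (rho = -0.67 with reads per cell), and without cell 7 its excess was 0.58, against 1.51 with it.

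The genes lowest against the line were mostly those of protein synthesis and turnover. At means of 10 or more, the lowest excess was that of Rpl6 (-0.85), at 6.67, 13.7 and 24.3 (lowest, median, highest), with Rpl4 at -0.60 and the elongation factors Eef1a1 (-0.68) and Eef1g (-0.60). Pebp1, a kinase inhibitor protein (-0.69), and Psmb7, a proteasome subunit (-0.64), were the others, along with CT010467.1 (-0.62). Eef1a1, for instance, ranged over 118 to 328, a far narrower band than Thbs1 (3.52 to 1408). The pseudogene entries Rps2-ps13 (-0.81), Rps3a3 (-0.72) and Gm8730 (-0.59) share sequence with expressed ribosomal genes, so their reads are uncertain.

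Correlations were computed over the 86 cells for the 2015 genes with a mean of at least 10 and reads in at least 50% of cells. These points share the plate, the sequencing pool and a fixed total per cell, and rho is given as a description. The median rho of all 2029105 pairs was 0.01, 99% of pairs lay below 0.33, and 1164 pairs (0.0574%) reached 0.5 or more and 369 (0.0182%) -0.5 or less. After adjustment for reads and genes per cell, 951 of the 1164 positive and 315 of the 369 negative pairs were still past the same value. Thinned to 100000 reads, 692 and 247 were, and by Pearson r of log2 values 732 and 175. All 1164 and 369 pairs kept their sign in both sets of wells taken alone, and 1158 of the positive pairs were at 0.3 or more in the first 41 cells and 1159 in the other 45. The pairs had been chosen on these same cells, so this was no separate check. Without cell 7 there were 1221 positive and 431 negative pairs past these values.

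Several of the 20 highest pairs joined genes of the contractile apparatus. Tagln (the actin-binding transgelin) and Acta2 had a rho of 0.85 (Pearson r of log2 values 0.82), Myl9 (a myosin light chain) and Acta2 0.80, Csrp1 (a LIM protein of stress fibres) and Tagln 0.80, and Cnn2 (a calponin) and Acta2 0.79. Without the 2 cells farthest from the median of the first gene, Tagln and Acta2 had 0.84 and Myl9 and Acta2 0.79. Myl9 also went with Tagln (0.77) and Cnn2 (0.76). Other cytoskeletal pairs were the tubulins Tubb5 and Tubb6 (0.72), Actb and Tuba1a (0.71), and Tmsb4x and the annexin partner S100a10 (0.71).

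The highest pair of all shared sequence, and ribosomal and mitochondrial pairs made up much of the rest of the 20. Rplp0 and the pseudogene Gm8730 had 0.90, and Rps2 and Rps2-ps13 0.72, where reads of the copies are uncertain. Ribosomal protein pairs were Rplp1 with Rps26, Rpl41 and Rplp2 (0.74, 0.73 and 0.73), and Rpl32 with Rpl41 (0.73). The mitochondrial pairs mt-Co1 with mt-Cytb (0.79) and mt-Rnr1 with mt-Rnr2 (0.73) come from transcripts of the same polycistronic RNA. The serine synthesis enzymes Phgdh and Psat1 reached 0.71, and Selenoh, a nucleolar selenoprotein, reached 0.70 with Ranbp1, a cofactor of the nuclear transport GTPase Ran.

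The most negative pair was Ran and the nuclear RNA Malat1, at -0.76 (-0.69 for r). Ran stood at 4.49, 38.3 and 113 (lowest, median, highest) and Malat1 at 50.1, 205 and 1229. Malat1 was also low where Ddx39 and Anp32b, of RNA export and chromatin, were high (-0.64 and -0.64). It took part in 33 of the 369 pairs at -0.5 or less, and Tmsb4x in 24. Tmsb4x opposed the gap junction gene Gja1 (-0.67), Gas2 (-0.66) and the adhesion receptor Adgrg2 (-0.66). The others were Igfbp7 with Cxcl5 (-0.67), the cystatin Cst3 with Cyp1b1 (-0.65), Ncam1, a neural cell adhesion molecule, with the syndecan Sdc2 (-0.65), and Fhl2 with Hmgn3 (-0.62). Values of a cell sum to a fixed total, which ties genes together negatively. With size factors, which also scale each cell as a whole, Ran and Malat1 had -0.75. The part of scaling in these negative pairs was not tested.

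**Figure D3:**
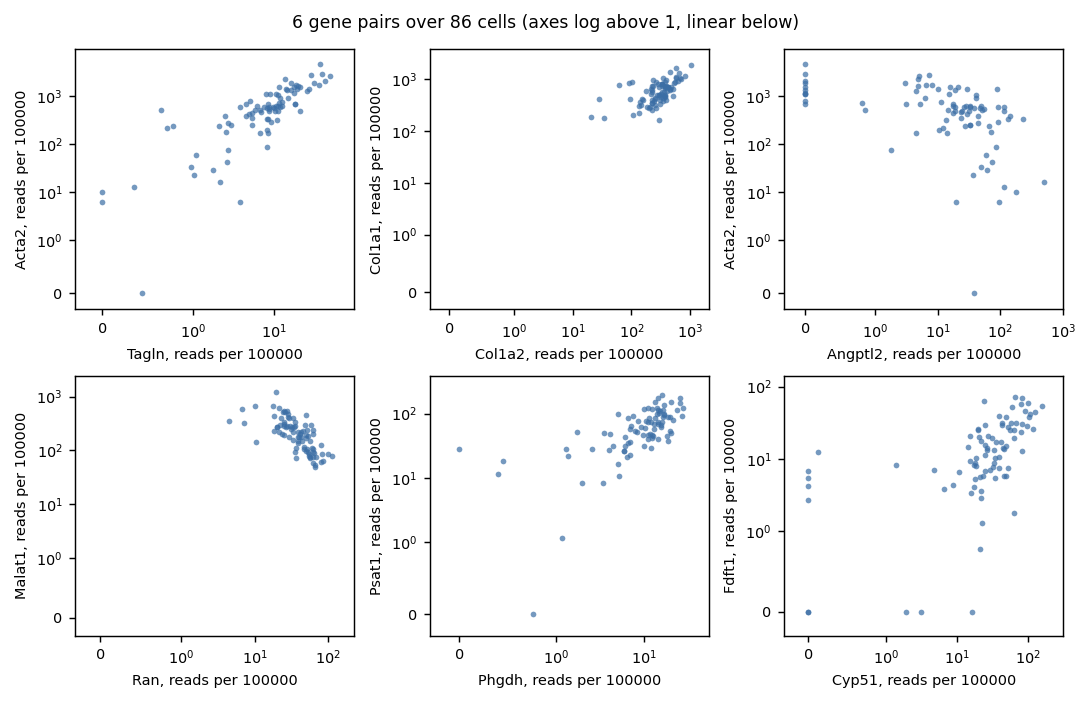
Levels of 6 gene pairs in 86 cells (each point a cell, reads per 100000, axes log above 1 and linear below). Tagln and Acta2 rise together (rho 0.85), as do Col1a2 and Col1a1 (0.61), Phgdh and Psat1 (0.71) and Cyp51 and Fdft1 (0.69), while Angptl2 and Acta2 (-0.61) and Ran and Malat1 (-0.76) run in opposite directions.

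The 5 markers did not vary as 1 programme. Among their 10 pairs the highest rho was that of Acta2 and Thbs1 (0.36) and the lowest that of Bgn and Vim (-0.33). Col1a1 and Acta2 had 0.25, and Acta2 and Vim had a rho near 0. Each marker had its own nearest genes. Col1a1 was nearest to Col1a2, which encodes the other chain of the same collagen trimer (0.61), then to the collagen receptor Itga11 (0.48), the collagen chaperone Serpinh1 (0.46), Eprs, which charges proline and glutamate tRNAs (0.41), and Fn1 (0.39). It was most opposed to Bhlhe40 (-0.40), Myl12b and Fgfr1.

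Acta2 was nearest to Tagln, Myl9, Cnn2, Tpm2 (0.76) and Csrp1 (0.76), and most opposed to Angptl2 (-0.61), Hmgn3 (-0.59) and Ecm1 (-0.58). Thbs1 was nearest to the focal adhesion gene Parva (0.52), Cald1 (0.49), Col12a1 (0.47), Ctgf (0.46) and Lims1 (0.42). Bgn was nearest to the endocytic receptor Lrp1 (0.52), Fbln5, Itga11, Sparc and Npdc1, and most opposed to the ribosome assembly gene Ebna1bp2 (-0.46). Vim was nearest to the sterol enzyme Msmo1 (0.48), the nuclear lamin Lmna (0.45) and the caveolar genes Cav1 (0.45) and Cavin1 (0.42), and most opposed to Ghitm (-0.45).

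Joining every pair at a rho of 0.6 or more gave 9 connected groups of at least 4 genes, a threshold chosen after the values were seen. The largest held 23 genes, among them Acta2, Tagln, Myl9, Cnn2, Csrp1, Tpm1, Tpm2, Tpm4, Flna, Cald1, Actb and Tmsb4x. Its summed level was 1451, 4228 and 12609.5 (lowest, median, highest cell). A group of 19 held Ran, Ranbp1, Cse1l, Nap1l1, Rrm1, Cdc20, the tubulins Tubb5, Tubb6, Tubb4b and Tuba1c, and the serine and asparagine enzymes Psat1, Phgdh, Shmt2 and Asns, so nuclear transport, cell cycle and amino acid synthesis genes lay in the same group. A group of 7 held chaperonin subunits (Cct5, Cct6a, Cct7) with Eif5a, Hsp90ab1, Eef1d and Dkc1, and the chaperonin genes Cct4 and Tcp1 lay in the group of 19. A group of 16 held lysosomal genes (Ctsa, Ctsb, Ctsd, Lamp1, Lamp2, Grn, Atp6v1f), the autophagy gene Gabarap, Serpine2 and Malat1.

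The last groups were smaller. Spp1, Il1rl1, Cxcl5, Angptl2, Cst3, Gja1, Adgrg2, Lxn and Sdc4 formed a group of 9, with summed levels of 22.5, 632 and 10473 and with 8 of the 9 genes called variable. Ogn, Sdc2, Bmp4, Hmgn3 and Glrx formed a group of 5. The others were 20 ribosomal protein genes and pseudogenes, 8 mitochondrial genes, and the sterol enzymes Cyp51, Fdft1, Msmo1 and Sqle. Comparing the mean rank of each group over cells, the Ran and Psat1 group was high where the lysosomal group was low (rho = -0.72, and -0.66 and -0.77 in the 2 sets of wells) and went with the group of Cct5, Eif5a and Hsp90ab1 (0.67). The contractile group was low where the Ogn group (-0.62) and the Spp1 group (-0.60) were high, and those 2 went together (0.78). The contractile group and the Ran and Psat1 group were only weakly related (0.22). The lysosomal group had a rho of 0.38 with the mitochondrial percentage, and the part of RNA quality in it was not tested.

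**Figure D4:**
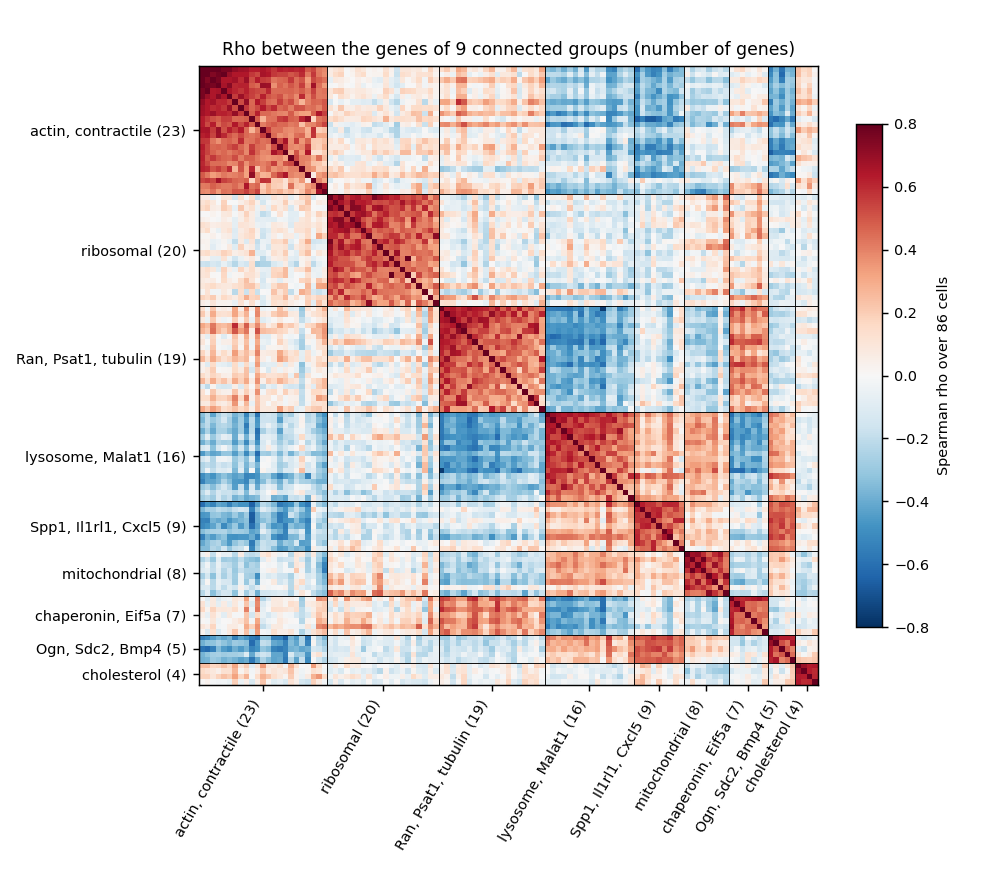
Spearman rho over 86 cells between all genes of the 9 connected groups, ordered by group (number of genes in brackets), from blue (negative) to red (positive). The Ran, Psat1 and tubulin block is blue against the lysosome and Malat1 block (rho of mean ranks -0.72), and the contractile block is blue against the Spp1 and Ogn blocks (-0.60 and -0.62).

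Gene lists from textbook functions were then described by their counts and medians, with no test of a list. They stand beside 10.7% of all genes called variable and 1.67% of all pairs at a rho of 0.3 or more, and 19% of genes with a mean of at least 20 were called. Members low in most cells pass the filter on the mean only through their high cells, which raises the share called. Both shares were higher in the contractile list. Of its 21 genes, 16 passed the variability filter and 7 were called (43.8%, median excess 0.24), and of 91 pairs among 14 genes, 64 (70.3%) were at 0.3 or more, with a median rho of 0.48. Its summed level was 293, 1727 and 9518 (lowest, median, highest cell), and the highest cell was cell 44. The called genes included Actg2, Cnn1, Myl9 (0, 57.7 and 399, excess 0.74), Acta2 (0.72), Csrp1 (0.38) and Tpm2 (0.34), while Tpm1 (0.11) and Cald1 (-0.04) were not called. Tagln itself was low in reads, at 0, 8.58 and 48.4, yet ranked the cells as Acta2 did. The sum of the list went with that of the TGF-beta and YAP responsive list (0.49), which includes Thbs1, Ctgf and Cyr61, and opposed the metallothionein list (-0.42).

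The CArG box is the sequence that serum response factor binds, and it is shown because it is the textbook element of the contractile genes. RefSeq promoter windows (GRCm38.p6, 250 bases before to 50 after the start site) were found for 18 of the 21 genes and searched for it on both strands. It lay in 3 of them, Cnn2, Myl9 and Vcl, against 1.81% of 27025 genes, and the Acta2 window held no exact match. The match began 56 bases before the start site of Cnn2 and 161 before that of Myl9 (capitals), genes with a rho of 0.76.
Cnn2 (chr10:79988514-79988583, + strand): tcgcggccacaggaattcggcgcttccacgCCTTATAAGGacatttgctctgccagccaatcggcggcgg
Myl9 (chr2:156775273-156775342, + strand): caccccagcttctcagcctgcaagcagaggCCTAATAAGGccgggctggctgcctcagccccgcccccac

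Matrix genes were often variable, but did not move as 1 block. Of 23 matrix glycoprotein and proteoglycan genes tested, 17 were called, with a median excess of 0.53, yet the median rho of their pairs was 0.13 and 11.1% were at 0.3 or more. Lum, Postn and Ogn led, with Tnc (tenascin, 0.73), Efemp1 (0.75) and Dcn (decorin, 0.70), while Sparc (-0.02), Bgn (-0.09) and Fn1 (0.19) were not called. Some members even opposed each other, such as Postn and Ogn (-0.45). Of 12 fibrillar and associated collagens 8 were called, among them Col3a1 (0.65) and Col12a1 (0.61) but not Col1a1 or Col1a2. The closest pairs of these lists were chains of the same molecule, Col1a1 with Col1a2, Col6a1 with Col6a2 (0.55) and Col4a1 with Col4a2 (0.69), a basement membrane pair transcribed from a shared promoter region. The sums of the fibrillar and basement membrane lists went together (0.53).

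Collagen processing enzymes had 2 of 14 called (14.3%, Lox 0.32 and P4ha3 0.31), near the 10.7% of all genes. Their median excess was 0.16, with 11 of 14 above the line, and their median rho was 0.16. Of 13 matrix proteases and inhibitors 9 were called, led by the stromelysin Mmp3 (1.35, with none in the median cell), Serpine2, Timp3 (0.81) and Adamts1 (0.77). Mmp14 and Timp2, which act together on the cell surface to activate another protease of this list, Mmp2, were its closest pair (0.47). Of 13 TGF-beta and YAP responsive genes 9 were called, led by Ankrd1 (1.19), and Ctgf and Cyr61 had 0.53. Of 7 insulin-like growth factor genes 6 were called, including Igfbp7 (0.62), and of 10 Wnt, Bmp and Hedgehog genes 8, including Sfrp2 (1.35), the Bmp antagonist Grem1 (0.78) and Bmp4 (0.76). The Bmp target genes Id1 and Id3 went together (0.45), but Bmp4 and Id1 had 0.06.

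Chaperones of the ER covaried with little excess. Of 17 genes 1 was called variable (Sec61b, 0.47), but 50 of 105 pairs (47.6%) were at 0.3 or more. Hspa5, the main folding chaperone of the ER, stood at 46.9, 274 and 874 (lowest, median, highest) and had 0.59 with Calr and 0.58 with Manf. Calr and Pdia4 had 0.61. The ER stress response element (ERSE), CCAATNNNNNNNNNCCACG on either strand, is shown because it is the textbook element of these genes. It lay in the windows of 7 of 16 list genes, Hspa5, Hsp90b1, Calr, Canx, Pdia6, Dnajc3 and Creld2, against 37 of all 27025 genes (0.137%). In Calr it lay on the opposite strand (capitals mark the match). Hsp90b1 and Calr had a rho of 0.58.
Hspa5 (chr2:34771995-34772073, + strand): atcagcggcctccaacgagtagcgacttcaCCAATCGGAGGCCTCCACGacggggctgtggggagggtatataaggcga
Hsp90b1 (chr10:86705608-86705686, - strand): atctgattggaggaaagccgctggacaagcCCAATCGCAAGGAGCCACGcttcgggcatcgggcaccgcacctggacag
Calr (chr8:84847045-84847123, - strand): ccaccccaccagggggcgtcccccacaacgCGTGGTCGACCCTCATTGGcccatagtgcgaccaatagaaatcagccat
Pdia6 (chr12:17266461-17266539, + strand): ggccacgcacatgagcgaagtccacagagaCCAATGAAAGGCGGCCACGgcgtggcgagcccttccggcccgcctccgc

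Cholesterol synthesis genes covaried and many were variable. Of 15 cholesterol synthesis genes 9 were called and 55 of 66 pairs (83.3%) were at 0.3 or more, with a median rho of 0.43. Their summed level was 44.8, 231 and 884 per cell. Cyp51 stood at 0, 27.9 and 158, Fdft1 at 0, 13.1 and 70.9 and Msmo1 at 0, 30.4 and 236, and Fdft1 and Cyp51 had 0.69. The lowest pair, Lss and Nsdhl, was still at 0.20. Glycolysis genes were paired, Eno1 with Ldha at 0.58 and Pkm with Ldha at 0.53, and 3 of 14 genes of the hypoxia and glycolysis list were called, Adm, Slc2a1 (0.40) and Pfkl (0.33). The summed ER chaperone and glycolysis lists went together (0.51).

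In the integrated stress response list, the amino acid enzymes formed the core. Psat1 stood at 0, 58.8 and 193 and Asns at 0, 52.6 and 172, and their rho was 0.61. Psat1 reached 0.62 with Shmt2 and 0.54 with Mthfd2, whereas Nupr1, the most variable member (0.85), had -0.19 with Psat1. The letters TGATGNAA, the binding element of the C/EBP and ATF factors that act in this response, were searched on both strands of the same windows and are shown for Asns and Nupr1, members of both kinds. They lay in 5 of 16 list genes against 4.51% of all genes, and the Psat1 window held none. In Nupr1 the match (capitals) lay on the opposite strand.
Asns (chr6:7693195-7693262, - strand): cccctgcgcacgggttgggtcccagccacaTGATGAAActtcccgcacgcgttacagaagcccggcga
Nupr1 (chr7:126625543-126625610, - strand): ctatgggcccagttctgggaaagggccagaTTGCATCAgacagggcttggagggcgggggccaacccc

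Cell cycle genes were uneven, as most cells had few reads of them. Summed mitosis genes stood at 1.67, 30.4 and 1394 (lowest, median, highest cell) and DNA replication genes at 8.21, 97.5 and 1008, and the 2 sums had a rho of 0.76. Of 32 mitosis genes 12 passed the filter on the mean and 11 were called, with Top2a (0.97), Ube2c (0.97) and Cdc20 the highest. Of 28 replication genes 14 passed and 9 were called, with Rrm2 (0.83), Ccne1 (0.70) and Mcm6 (0.64). As most cells had few reads of these genes, both shares follow in part from the filter. The mitosis sum was low where matrix glycoprotein (-0.54) and matrix protease sums (-0.55) were high, and the replication sum likewise with matrix glycoproteins (-0.56). Of the 32 mitosis genes a cell had reads of 1 at the lowest, 7.5 at the median and 32 at the highest, and 19 cells had at least 20 of them. Partial on reads and genes per cell, the first of these was -0.56. Cell cycle inhibitors and p53 targets covaried among themselves, Cdkn1a with Mdm2 at 0.52 and with Ccng1 at 0.53. Cdkn1a, which blocks cyclin-dependent kinases, stood at 0, 96.7 and 706, and Mdm2, the p53 ubiquitin ligase, had an excess of 0.83.

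The cell cycle homology region (CHR), TTTGAA on either strand, lies next to the start sites of many mitotic genes and is shown for 3 of them. It lay in 18 of 27 mitosis genes with a window, against 20.2% of all genes. In Cdc20 it began 18 bases before the start site and in Cdk1 71, and Mki67 held 2 copies (capitals). Of the matches of these 4 motifs in the windows of their lists, 0 overlapped a match of another. Cdc20, the only mitosis gene past the correlation filter, went with Ranbp1 (0.69), Cse1l (0.68) and Psat1 (0.67).
Cdc20 (chr4:118437326-118437391, - strand): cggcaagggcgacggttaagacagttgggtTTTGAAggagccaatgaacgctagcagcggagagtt
Cdk1 (chr10:69352948-69353013, - strand): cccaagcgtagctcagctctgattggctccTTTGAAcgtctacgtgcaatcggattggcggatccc
Mki67 (chr7:135716460-135716525, - strand): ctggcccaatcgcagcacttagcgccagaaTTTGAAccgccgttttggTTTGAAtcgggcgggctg

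**Figure D5:**
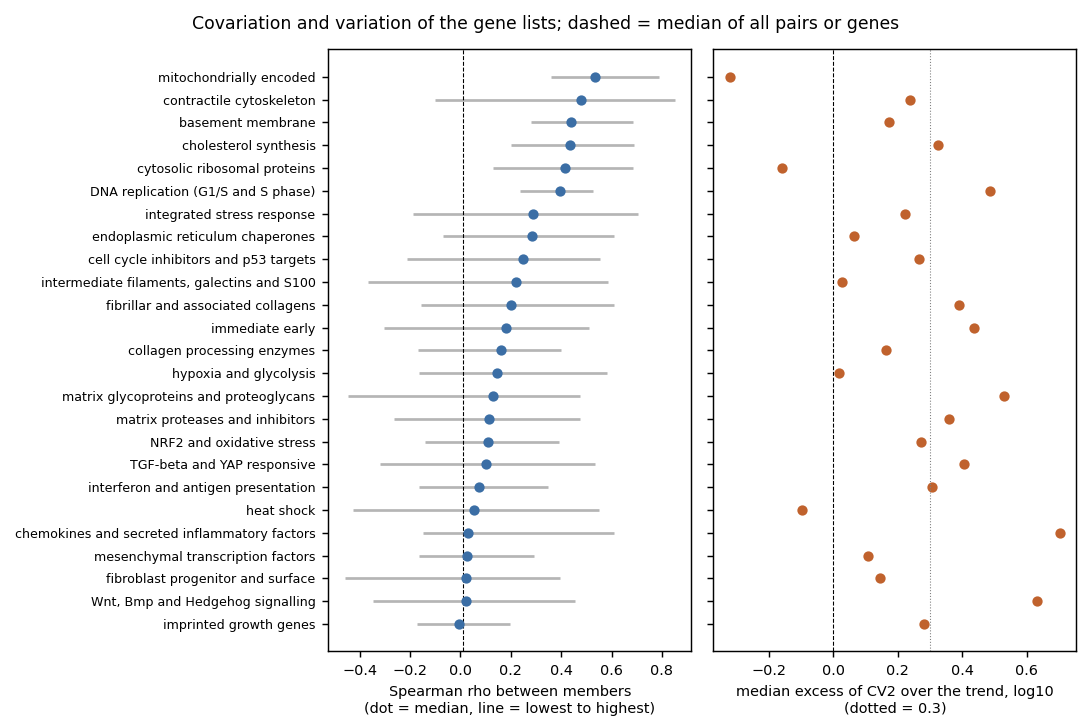
Left, Spearman rho between members of each list with at least 4 genes in the correlation set (dot the median, line the lowest to highest pair), and right, the median excess of the list's genes in log10 units. Mitochondrial and ribosomal genes covary (median rho 0.53 and 0.42) with an excess below 0, the contractile and cholesterol lists covary (0.48 and 0.43) with an excess above 0 (0.24 and 0.32), and chemokines have a high excess (0.70) with a median rho of 0.03.

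Ribosomal protein genes covaried, with 182 of 231 pairs at 0.3 or more, and 1 of 25 was called variable. Their median excess was -0.16 with cell 7 and -0.58 without it, and their median rho 0.42 and 0.40. The 36 pairs of mitochondrial genes were all at 0.3 or more. Heat shock genes were split, with Hsp90aa1 and Hsp90ab1 at 0.55 but Hsp90ab1 and the small heat shock gene Cryab at -0.43.

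Most inflammatory genes that passed the filter on the mean were called variable, but many measured ones did not pass it. Of 25 measured chemokine and inflammatory genes 11 passed and 10 of these were called, beside 10.7% of all genes. Some were absent from many cells (Cxcl5 from 37, Ccl2 from 23), so the share may follow in part from the filter. Among their pairs, 6 of 28 (21.4%) were at 0.3 or more. The highest excess was that of Il1rl1, Cxcl5, Ccl2, Ccl7 (0.82) and Cxcl12 (0.72). Il1rl1 and Cxcl5 had 0.61, and the neighbouring chemokine genes Ccl2 and Ccl7 0.49, while Cxcl12, which guides haematopoietic cells, stood apart from Ccl7 (-0.15). Il1rl1 also went with Angptl2 (0.63) and Anxa8 (0.60), and Spp1 with Gja1 (0.61) and Angptl2 (0.60). On the other side, Ptn and Postn went together (0.68), Postn with Tagln (0.58), and Ptn opposed Angptl2 (-0.53) and Il1rl1 (-0.47). Acta2 lay on the Postn side, and against it Cnn1 had 0.60 and Mgp -0.50.

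Immediate early genes, which respond within minutes to serum or handling, had 11 of 15 members called, with Dusp1 (reads in 77 cells, up to 368, excess 0.78), Fos (0.71), Nr4a1 (0.70) and Egr1 (0.60). Egr1 went with Ier2 (0.51) and Myc (0.51). Of 7 interferon and antigen presentation genes 4 were called, with B2m steady (-0.01), and of 11 oxidative stress genes 5, with Hmox1, the haem-degrading enzyme, the highest (0.74). Mesenchymal transcription factors had 4 of 12 called, Snai1 (0.65) and Snai2 (0.42) among them, while Prrx1, a factor of limb mesenchyme, was present in every cell (3.68, 19.3 and 104). Imprinted growth genes had 4 of 9 called, Mest, H19, Peg3 (0.83) and Grb10 (0.43), and the median rho among 5 of them was near 0.

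Surface and structural genes gave a few more contrasts. Of 15 progenitor and surface genes 5 were called, led by Gpc3, a glypican (1.24, 0, 5.55 and 459.8), and Ly6a, the Sca-1 antigen of mesenchymal progenitors (0.79, reads in 53 cells). The median rho of this list was 0.02 (-0.46 to 0.40), and 4 of 45 pairs (8.89%) were at 0.3 or more. Of 12 intermediate filament, galectin and S100 genes only Lgals3 was called (0.54), and the calcium-binding S100a6 and S100a11 were the closest pair (0.59). Of 3 metal response genes 2 were called, Mt1 and Hmox1, and the ferritin gene Fth1 was not (0.18). Of 11 listed histone genes only 2 passed the filter, Hist1h1c (0.61) and Hist1h2bc (0.46), and both were called. Whether their level followed DNA replication was not tested.

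Genes of body position were low and patchy. Every cell had reads of at least 1 of the 30 Hox genes measured, with a median of 5 and a highest of 12 per cell. Hoxa10 had reads in 42 cells (95% exact Clopper-Pearson interval of the share 37.9% to 59.9%, for the sampling of cells within this plate only). The digit gene Hoxd13 had reads in 34 cells and Hoxc6 in 24 cells. Only Msx1, a homeobox gene of limb buds and face (excess 0.85), and Irx3 (0.34) of this list passed the variability filter. Tbx5, which marks forelimb mesenchyme, had reads in 11 cells (12.8%) and Tbx4, which marks hindlimb, in 11 cells (12.8%). No cell had both (0 of 86 cells). The limit for cells with reads of both, not for cells with both RNAs, was 3 counts of 86, or 3.49%. With so few cells holding either gene, few would hold both even if the genes were unrelated, and exclusion was not tested. Pitx1, a hindlimb factor acting with Tbx4, had reads in 22 cells, 8 of them with Tbx4 and 1 with Tbx5. Hoxa11 and Hoxd11 shared 14 cells, and Hoxa13 and Hoxd13 6, with Hoxa13 alone in 1. Means were as low as 0.531 for Tbx5 and 2.95 for Hoxd13, so a cell without reads is not shown to lack the RNA.

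Xist, the RNA of the inactive X, had reads in 77 of 86 cells at 0, 13.4 and 70.8 (lowest, median, highest), and 9 cells had none. Thinned to 100000 reads, 11 of 84 cells had none. The remaining X-linked genes took 2.59, 3.49 and 4.88% of reads (same order). The Xist level and the X-linked share had a rho of 0.22 (r = 0.24). Counting was not stated to use strand, so reads of Xist and its antisense gene Tsix could not be told apart.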

How the data were processed

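Single cells were sorted into wells of a 96-well plate and sequenced by Smart-seq2, which covers whole polyadenylated transcripts without molecular identifiers. Per the labels, the submitters' processing notes and the study's methods, the authors aligned reads with STAR 2.5.3a to mm10, counted uniquely aligned reads per GENCODE gene with featureCounts, kept cells with over 4000 and under 10000 genes and under 8% mitochondrial reads, and deposited natural log values, ln(1 + reads scaled to a fixed total per cell), from Seurat. The methods give that total as 100000, but the deposited values sum to 10000 in each cell.

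Each value was turned back to a linear level and given as reads per 100000. Of the 581463 values above 0, 581463 corresponded to whole reads (within 0.01 reads or a relative 1e-06). Of 96 labelled day 0 cells 86 were in the table. All 86 lay within the authors' limits, and whether those limits had removed the other labelled cells could not be checked. The 481 columns of other plates were not used. Doublets were not called, since each well was sorted to hold 1 cell. Reads are not independent molecules. The interval and the limit given take the cells of this plate as independent draws, and cover neither missed RNAs nor differences between cultures.

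Variation was the log10 squared coefficient of variation minus a running median over 200 genes of like mean, and the 100 genes of highest mean shared 1 value of it. Spearman rho was computed over cells. Python 3.11.15, numpy 2.4.6, pandas 2.3.3, scipy 1.17.1 and networkx 3.6.1 were used, and both steps were tested on simulated data. Genes were named by fixed ranks: the 5 markers, the 25 highest means, the 25 highest excess values with a mean of at least 10 plus up to 5 carried by 1 cell, the 10 lowest, the 20 highest and 10 lowest pairs with a gene in at most 3 of them, the nearest and most opposed genes of each marker, up to 6 members of a list, and Xist and the reprogramming factors. Other genes named as partners of these were chosen after their values were seen, and a few genes that meet the rule are not reported here. The members, the gene lists and these rules were chosen with earlier results of these data known. With 1 plate there were no replicates, and no test was run. Alternatives were size factors over 752 genes with reads in every cell, thinning to 100000 reads (2 shallower cells left out), other filters and windows, Pearson r of log2(value + 1), adjustment for depth, leaving out cells and the 2 sets of row indexes.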

Additional observations from a re-analysis of the deposited data

How the results depend on the processing

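No paired analysis was possible because the cells form 1 sample and no result comes from a test. Of 553 counts and list medians recomputed under the alternatives, 537 stayed within 1.5 times the reported count or within 1 SD over the members or pairs of the list. A mean of at least 1 gave 702 variable genes and a mean of at least 20 gave 175, against 411, out of 8548 and 921 genes tested, so the share called was 8.21% and 19%, against 10.7%. Pearson r of log2 values gave 2266 pairs at 0.5 or more, against 1164. The first and last 4 row indexes, with 41 and 45 cells, gave 5873 and 3911 such pairs, and 3153 and 2281 pairs at -0.5 or less, against 369. All 1164 and 369 pairs kept their sign under each alternative run on them, but they had been chosen on the same cells, so this is no separate check. The median rho of ribosomal protein genes (0.42) was 0.55 by Pearson r, 0.29 with size factors and 0.27 with a mean of at least 1. Their median excess (-0.16) was -0.50 thinned to 100000 reads, -0.54 without the highest cell of each gene, -0.63 in the last 4 row indexes and -0.58 without cell 7. With a mean of at least 1 the median rho of basement membrane genes was 0.0935 (0.44 as reported), and with a mean of at least 20 the median excess of collagen processing enzymes was 0.0174 (0.16). The causes were not tested. Of 390 excess values of named genes, 21 moved by more than 1 SD over all genes and 1 turned negative, Slc34a2 at -0.18 in the last 4 row indexes, which leave out cell 7, and Bgn crossed 0 there (0.03). Of 536 values of the highest, lowest and marker pairs with an absolute rho of at least 0.3, 20 moved by more than 1 SD over all pairs and none changed sign, while pairs near 0 such as H19 and Mest did. The settings without cell 7 were added after the data were seen. Depth limits genes of low mean, since 1 read was worth 1.64 per 100000 in the shallowest cell.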
